A study of Mus musculus with 11 samples.

Results

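The mRNA levels of 8 genes of cholesterol synthesis and its control, Hmgcs1, Sqle, Idi1, Fdft1, Insig1, Cyp51, Lss and Srebf2, were examined in the hippocampus of F1 mice. They were taken by gene symbol from the 38293 genes in the count tables, by a rule with no threshold on their values, although earlier results of these data were known when they were chosen. All 8 were found, and all 8 passed the minimum of 10 counts over all mice, as did 20589 genes in total. The mice were 14-week-old wildtype 129S6/SvEv x C57BL/6J hybrids of both sexes. Dams of the CD group received 2.3 mg folic acid per kg diet and dams of the FD group 40 mg per kg for 6 weeks before mating. After mating, every animal received the lower dose, so that the offspring of both groups were themselves raised on the same diet. RNA of the whole hippocampus was sequenced in 6 CD mice (3 males, 3 females) and 5 FD mice (2 males, 3 females). How the sequenced mice were distributed over litters was not stated, so the p-values below describe the spread between these mice.

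Cells build cholesterol from acetyl-CoA through mevalonate and squalene, and the brain makes nearly all of its own because plasma lipoproteins do not cross the blood-brain barrier. The transcription factor SREBP-2, the product of Srebf2, drives the genes of this route when membrane sterol is low. INSIG1 holds it in the endoplasmic reticulum when sterol is plentiful. Of the 8 genes, Hmgcs1 (HMG-CoA synthase) and Idi1 (isopentenyl-diphosphate isomerase) act in the mevalonate part. Fdft1 (squalene synthase), Sqle (squalene epoxidase), Lss (lanosterol synthase) and Cyp51 (lanosterol demethylase) act on the way from farnesyl diphosphate to sterols. None of the 8 encodes a lipoprotein receptor, so uptake was covered by a separate list.

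The genes lie on 5 chromosomes (GRCm38, GENCODE annotation). Hmgcs1 (ENSMUSG00000093930) and Idi1 (ENSMUSG00000058258) are on chromosome 13, at 119690379 to 119708260 and at 8885501 to 8892451. Sqle (ENSMUSG00000022351) and Srebf2 (ENSMUSG00000022463) are on chromosome 15, at 59315077 to 59331192 and at 82147181 to 82205379. Insig1 (ENSMUSG00000045294) and Cyp51 (ENSMUSG00000001467) are on chromosome 5, at 28071363 to 28078662 and at 4081145 to 4104746. Fdft1 (ENSMUSG00000021273) is on chromosome 14, at 63145150 to 63179578, and Lss (ENSMUSG00000033105) on chromosome 10, at 76531588 to 76557138.

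RefSeq promoter windows (GRCm38.p6, 250 bases before and 50 after a transcription start) were matched for 6 of the 8 genes by symbol, all but Sqle and Fdft1. They were searched on both strands for TCACNCCAC, a form of the sterol regulatory element bound by SREBP, and for CCAAT and GGGCGG, the core letters bound by NF-Y and Sp1. TCACNCCAC was found in 1 of the 6 windows, that of Hmgcs1, at position -137 from the start, and in 1.24% of all 32851 windows. CCAAT was found in 6 of 6 windows (37.4% of all windows) and GGGCGG in 6 of 6 (35.7%). In the 46 windows matched for 32 other sterol pathway genes (lists below), TCACNCCAC was found in 0. CCAAT was found in 47.8% of these 46 windows and GGGCGG in 60.9%. The bases before the start are shown for Hmgcs1, which has the TCACNCCAC match and the highest mRNA level, and for Lss and Srebf2, the pair that varied in opposite directions between mice (below). Capitals mark the matches to the 3 patterns on either strand, and none of the matches overlap in these 3 sequences.
Hmgcs1, chr13:119690101-119690350, plus strand: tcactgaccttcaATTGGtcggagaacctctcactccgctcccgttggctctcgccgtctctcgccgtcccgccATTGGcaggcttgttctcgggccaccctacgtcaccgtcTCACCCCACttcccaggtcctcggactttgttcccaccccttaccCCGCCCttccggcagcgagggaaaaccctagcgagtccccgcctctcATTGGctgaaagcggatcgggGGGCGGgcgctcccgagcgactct
Lss, chr10:76531355-76531604, plus strand: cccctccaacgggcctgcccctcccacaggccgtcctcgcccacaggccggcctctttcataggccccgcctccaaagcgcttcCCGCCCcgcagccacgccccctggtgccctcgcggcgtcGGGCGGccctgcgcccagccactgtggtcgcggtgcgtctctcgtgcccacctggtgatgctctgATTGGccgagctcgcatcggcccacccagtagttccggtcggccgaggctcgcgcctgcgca
Srebf2, chr15:82147019-82147268, plus strand: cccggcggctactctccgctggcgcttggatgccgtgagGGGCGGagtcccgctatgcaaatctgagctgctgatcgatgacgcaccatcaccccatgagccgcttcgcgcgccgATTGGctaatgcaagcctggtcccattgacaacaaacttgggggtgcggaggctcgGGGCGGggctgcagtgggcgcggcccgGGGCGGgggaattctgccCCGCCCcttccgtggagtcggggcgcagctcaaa

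The total counts on genes ranged from 11737554 to 44447006 per mouse. Xist was counted 7426 to 30462 times in the mice labelled female and 6 to 27 times in those labelled male. Markers of neurons, hippocampal neurons, astrocytes, oligodendrocytes and 5 further cell types or neighbouring regions were all measured, with no marker at 0 in any mouse. No summed marker list differed between CD and FD mice beyond the spread within groups (exact permutation tests, p between 0.0736 and 0.721). The choroid plexus markers summed to 35.6 to 89.5 CPM (counts relative to library size, TMM-scaled) in CD and 30.7 to 43.6 CPM in FD mice. All 6 of them had a log2 fold change, FD minus CD, below 0 (median -0.25), 1 with an unadjusted p under 0.05 (edgeR, 2.59% of all genes). The thalamus or striatum markers, with the lowest p of the sums, had 6 of 6 above 0 (median 0.11), none at this level. No single marker of these lists passed an adjusted p of 0.1. In tissue of several cell types, fewer cells of a type and less RNA per cell cannot be told apart.

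The 8 genes were expressed at very different levels. Divided by exon length, Hmgcs1 was highest with 63.6 ± 3.64 RPKM (SD, n = 11), 2.5-fold above Srebf2 with 25.5 ± 1.90 RPKM. Cyp51 (14.8 RPKM), Fdft1 (13.0 RPKM), Sqle (12.7 RPKM) and Insig1 (12.5 RPKM) followed, and the ranges over mice of each neighbouring pair among these 4 overlapped. Lss reached 3.80 RPKM and Idi1 0.552 RPKM, without overlap with their neighbours in this order. The low value of Lss is per 10787 bases of annotated exon, the longest of the 8 genes. The spread between the 11 mice was small, with coefficients of variation of the CPM of 5.72% for Hmgcs1, 6.01% for Insig1 and 6.28% for Sqle, up to 9.56% for Lss and 18.8% for Idi1.

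Idi1 had only 24 to 87 counts per mouse. Of its longest coding transcript (3027 bases), 684 bases were 100% identical to the processed pseudogene Gm13502 on chromosome 2 (53696121 to 53696804), and these bases make up most of the 852-base coding sequence. Reads that align equally well to both places are not in the counts, so the level of Idi1 leaves such reads out. Gm13502 had 102 counts over all mice and Idi1 492, and where the reads counted for the copy came from was not tested. The RPKM of Idi1 is per 3505 exon bases, the shared ones included. The first 50 shared bases (Idi1 at chr13:8886763-8886812, plus strand, inside the coding sequence) are shown because they are as long as 1 read, with the in-frame start codon of the shared stretch in capitals.
Idi1 and Gm13502: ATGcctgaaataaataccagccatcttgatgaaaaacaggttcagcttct
For Fdft1, the pseudogene Gm6781 matched 1249 bases with 97.4% identity, and 774 exonic bases overlap Ctsb on the opposite strand. Cyp51 overlaps Akap9 by 166 bases, also on the opposite strand. So does Lss with 4930483K19Rik, by 381 bases, and this antisense gene had 28 counts over all mice. Hmgcs1 overlaps Gm48342 by 557 bases and Idi1 overlaps Gm48574 by 323, again on the opposite strand. Gm48342 and Gm48574 were not among the counted genes. Strand use in the counting was not stated, so reads from these overlaps may be missing or assigned to the wrong gene.

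The comparison of CD and FD mice asks whether high folic acid before conception is followed by a difference in sterol gene expression in the adult offspring. None of the 8 genes passed the test for a difference between CD and FD mice. Of the 8, 0 passed an adjusted p of 0.1 (quasi-likelihood test of edgeR, Benjamini-Hochberg adjustment, adjusted p = 1 for each), while 0.068% of all genes did (14 of 20589, all higher in FD mice). DESeq2 also called 0 of the 8 (0.0874% of all genes). At an unadjusted p under 0.05, the count was 0 of 8 (2.59% of all genes). Of the 14437 genes averaging 1 CPM or more, 4 passed the adjusted p (edgeR) and 194 the unadjusted p. The groups overlapped for all 8 genes, whereas for 0.505% of all genes every FD mouse lay above or below every CD mouse. The estimated log2 fold changes, FD minus CD, lay between -0.08 and 0.09, with 4 above and 4 below 0. Their median was -0.0097, and that of all genes tested was -0.004.

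**Figure D1:**
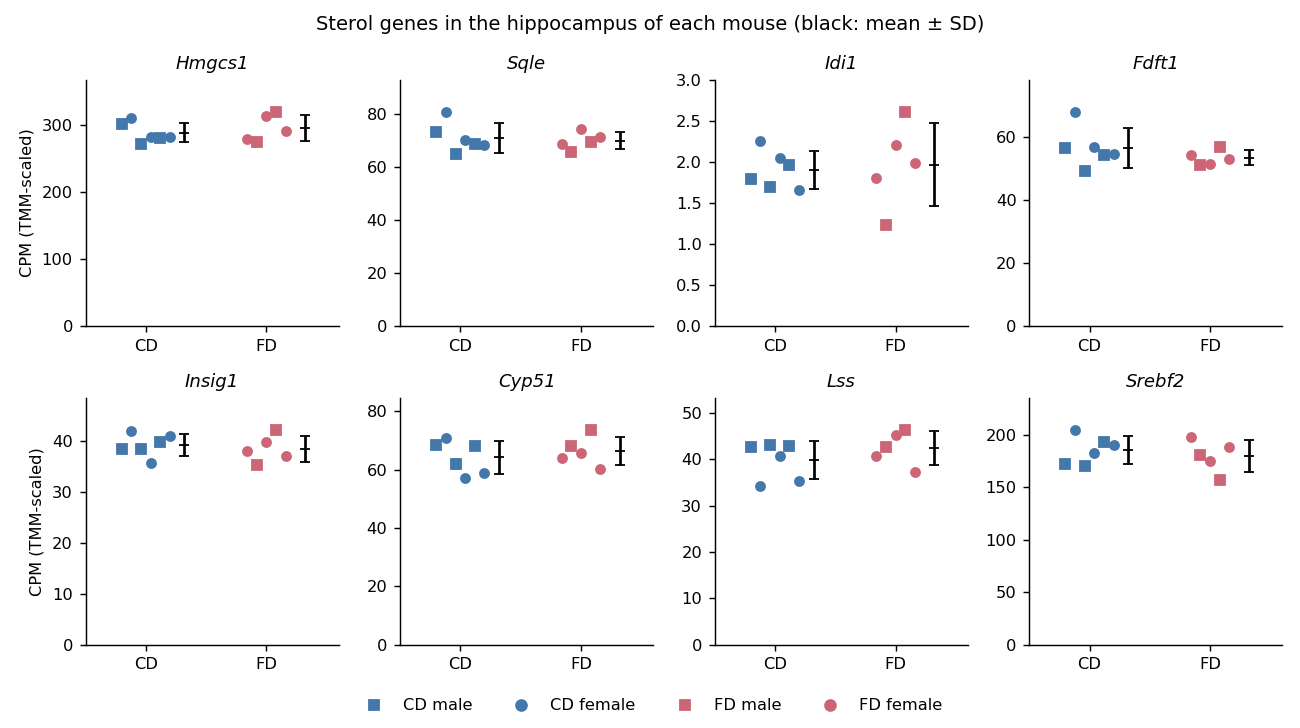
CPM (TMM-scaled, linear axes from 0) of each of the 8 genes in every mouse, CD in blue and FD in red, males as squares and females as circles, with the mean ± SD of each group in black. The CD and FD mice overlap in every panel, and Idi1 has the widest relative spread.

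In the mevalonate part, Hmgcs1 ranged in CD mice from 273 to 311 CPM with a median of 283. In FD mice it was 280 (female 1), 276 (male 1), 314 (female 2), 320 (male 2) and 291 (female 3) CPM. The highest mouse of all was in the FD group and the lowest in the CD group, and the log2 fold change was 0.03 ± 0.05 (SE), with a 95% interval from -0.08 to 0.15. Idi1 ranged from 1.66 to 2.26 CPM in CD mice, with a median of 1.88. In FD mice Idi1 was 1.80, 1.24, 2.21, 2.62 and 1.99 CPM in the same order. The lowest and the highest Idi1 values were those of the 2 FD males, and the 95% interval of the log2 fold change, from -0.36 to 0.37, was the widest of the 8.

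Among the squalene and lanosterol enzymes, Fdft1 lay between 49.1 and 68.0 CPM in CD mice (median 55.5). In FD mice Fdft1 was 54.4, 51.2, 51.4, 56.9 and 53.1 CPM, all of them inside the CD range. Its log2 fold change was -0.08 ± 0.07 (SE, unadjusted p = 0.245, adjusted p = 1, edgeR), with a 95% interval from -0.23 to 0.06. Sqle, the oxygen-dependent step after it, lay between 64.9 and 80.9 CPM in CD mice (median 69.4). In FD mice Sqle was 68.9, 65.8, 74.5, 69.6 and 71.4 CPM. Here too every FD mouse fell inside the CD range, and the log2 fold change was -0.02 ± 0.06 (SE).

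Lss, which closes the sterol ring, showed the largest estimated difference of the 8. It ranged from 34.2 to 43.2 CPM in CD mice (median 41.8) and was 40.7, 42.6, 45.2, 46.2 and 37.2 CPM in FD mice. FD female 2 and FD male 2 lay above all CD mice, while the other 3 FD mice lay within the CD range. The log2 fold change was 0.09 ± 0.08 (SE), with a 95% interval from -0.08 to 0.25. Cyp51, the next enzyme, ranged from 57.1 to 71.0 CPM in CD and from 60.4 to 73.5 CPM in FD mice, with a log2 fold change of 0.04 ± 0.07 (SE).

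The controlling genes did not pass the test either. Srebf2 ranged from 170.0 to 204 CPM in CD mice (median 186) and was 198, 181, 175, 157 and 189 CPM in FD mice. FD male 2 was the lowest mouse and CD female 1 the highest, and the log2 fold change was -0.04 ± 0.06 (SE). Insig1, itself a target of SREBP-2, ranged from 35.6 to 41.9 CPM in CD and from 35.1 to 42.0 CPM in FD mice, with a log2 fold change of -0.03 ± 0.06 (SE). Without Idi1, the 95% intervals of the 7 other genes, each taken alone, reached from 0.853-fold to 1.19-fold, and larger differences lay outside them.

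**Figure D2:**
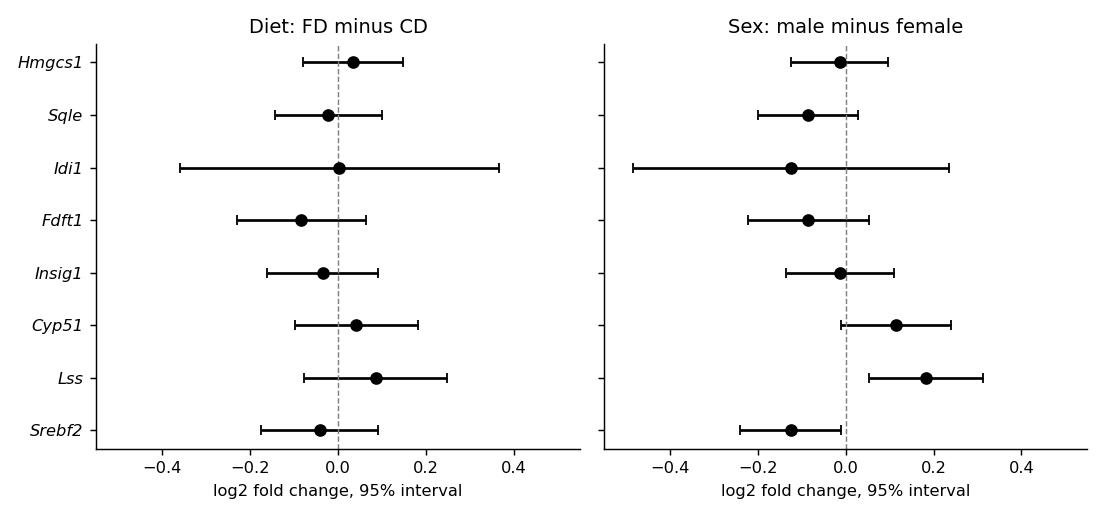
log2 fold changes of the 8 genes with their 95% intervals from edgeR, FD minus CD on the left and male minus female on the right. All 8 intervals include 0 for diet, whereas those of Lss (above 0) and Srebf2 (below 0) do not include 0 for sex.

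The other 43 genes of the pathway were grouped into lists. By diet, 0 of the 43 passed an adjusted p of 0.1 (edgeR's quasi-likelihood test). An unadjusted p under 0.05 was found for 2.59% of all genes, for 194 of 14437 genes averaging 1 CPM or more, and for 1 of the 43. This was Mvd, the decarboxylase that yields isopentenyl diphosphate, with 18.4 ± 1.45 CPM (SD, n = 6) in CD and 16.6 ± 0.928 CPM (SD, n = 5) in FD mice and a log2 fold change of -0.15 ± 0.07 (SE, unadjusted p = 0.0495, adjusted p = 1). List medians of the log2 fold change were -0.02 for the 7 genes of the mevalonate arm, 0.02 for the 9 of the post-squalene arm, -0.03 for the 10 regulators, 0.00 for the 9 uptake genes and -0.04 for the 8 genes of efflux and storage.

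The smallest p by diet in the post-squalene, uptake, and efflux and storage lists was that of Sc5d (sterol C5-desaturase, log2 fold change 0.07, unadjusted p = 0.251), Lrp1 (a large endocytic receptor, 0.09, unadjusted p = 0.327) and Ch25h (-0.55, unadjusted p = 0.138), all from edgeR with an adjusted p of 1. Ch25h, which makes an oxysterol, was close to absent. It did not exceed 0.440 CPM in any mouse and was at 0 in at least 1 mouse.

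**Figure D3:**
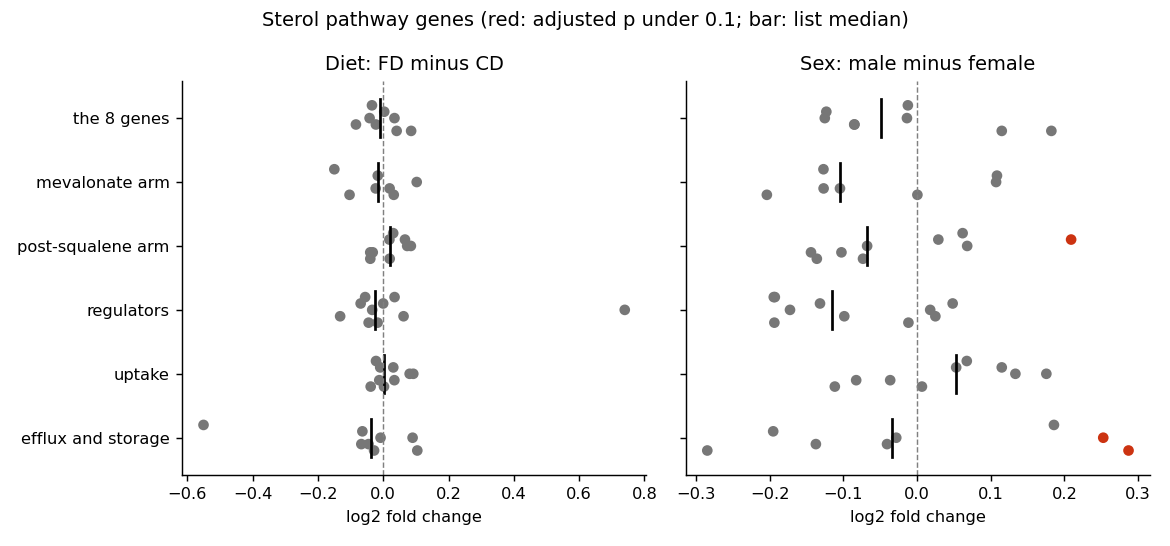
log2 fold changes of the 8 genes and of 43 further sterol pathway genes by list, with the list median as a bar and genes with an adjusted p under 0.1 in red. By diet no gene is red, and Ch25h (-0.55) lies apart on the left, whereas by sex Hsd17b7, Soat1 and Abca1 are red, all higher in males.

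Males and females were compared with diet as a covariate. Of the 8 genes, 0 passed an adjusted p of 0.1 (edgeR's quasi-likelihood test), against 6.11% of all genes (1257 of 20589). This share was unstable, since 18 to 3244 genes were called without 1 mouse, 37 without a diet term and 9 with the share of reads outside genes as a covariate. DESeq2 called 1 of the 8, Lss, against 9.92% of all genes. It gave no adjusted p for Idi1, and genes without an adjusted p count as not called here. An unadjusted p under 0.05 was reached by 2 of the 8, Lss and Srebf2, against 20.3% of all genes. Of the 14437 genes averaging 1 CPM or more, 1203 passed the adjusted p (edgeR) and 3755 the unadjusted p. The sexes overlapped for all 8, and 1.78% of all genes did not overlap.

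Lss was 42.7, 43.2, 42.8, 42.6 and 46.2 CPM in the 5 males (CD male 1 to 3, FD male 1 and 2) and ranged from 34.2 to 45.2 CPM in the 6 females, with a median of 38.9. The males were close together and lay above 5 of the 6 females, with FD female 2 among them. The log2 fold change, male minus female, was 0.18 ± 0.06 (SE), with an adjusted p of 0.113 from edgeR and 0.0576 from DESeq2. Srebf2 was 172, 170.0, 193, 181 and 157 CPM in the males and 175 to 204 CPM in the females, with a median of 189. CD male 3 was above 4 of the 6 females and FD male 1 was below 5 of them. CD male 1, CD male 2 and FD male 2 were below all 6. The log2 fold change of Srebf2 was -0.13 ± 0.05 (SE, adjusted p = 0.207, edgeR).

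For the 6 other genes, the log2 fold change by sex lay between -0.12 (Idi1) and 0.11 (Cyp51), and no unadjusted p was below 0.0703 (edgeR). The interaction of diet and sex was called for 0 of 20589 genes (edgeR's quasi-likelihood test), with 1.9% of all genes and 0 of the 8 at an unadjusted p under 0.05. The largest interaction estimate of the 8 was that of Fdft1, with a log2 fold change by diet of 0.03 in males alone and -0.18 in females alone, and the test of the difference gave an unadjusted p of 0.153 (edgeR). DESeq2 was not run for the interaction.

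Of the 43 further genes, 3 passed the threshold by sex, all higher in males (3.07% of all genes were), and 16 had an unadjusted p under 0.05. Of these, 5 were higher (9.94% of all genes) and 11 lower (10.3%) in males. Among the 14437 genes averaging 1 CPM or more, 599 passed the threshold and were higher in males. At the unadjusted p, 1802 of them were higher and 1953 lower. Hsd17b7, a ketoreductase of the post-squalene arm, was 27.2 to 32.7 CPM in males and 24.8 to 26.5 CPM in females. It was the only one of these genes whose sexes did not overlap (log2 fold change 0.21 ± 0.05, SE, adjusted p = 0.0715, edgeR). Soat1, which esterifies cholesterol for storage, was 26.2 ± 1.09 CPM (SD, n = 5) in males and 22.3 ± 2.84 CPM (SD, n = 6) in females (adjusted p = 0.0829, edgeR). Abca1, which exports cholesterol to apolipoproteins, was 60.9 ± 2.87 CPM (SD, n = 5) in males and 50.7 ± 8.45 CPM (SD, n = 6) in females (adjusted p = 0.0875, edgeR). These 3 calls are from the fit whose number of called genes was unstable (above). Their values under the alternatives are not given here.

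The smallest p by sex in the other lists belonged to Mvk, the kinase of mevalonate (log2 fold change -0.20, adjusted p = 0.114, edgeR), Mylip, a ubiquitin ligase of the regulators (-0.19, adjusted p = 0.127), and Vldlr, a receptor of the uptake list (0.11, adjusted p = 0.194). Marker levels also differed between the sexes. The astrocyte markers summed to 4523 to 4768 CPM in males and 3988 to 4607 CPM in females (exact permutation test, p = 0.0303). The single markers were divided, with a log2 fold change above 0 for 3 of 6 and below 0 for 3 of 6 (median -0.03) and with 1 called higher and 1 called lower in males (edgeR). The oligodendrocyte markers summed to 4139 to 5179 CPM in males and 4244 to 6655 CPM in females (exact permutation test, p = 0.0801). All 8 of these single markers had a log2 fold change below 0 (median -0.19). Of the 8, 4 had an unadjusted p under 0.05 (10.3% of all genes were lower at this level) and 1 was called lower in males (edgeR). In this fit, whose number of called genes was unstable (above), 633 of all 20589 genes were called higher and 624 lower in males. The part of these 2 marker lists in the values by sex was not tested.

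The sexes differed in library composition as well. The share of aligned reads ascribed to more than 1 gene was 1.40% ± 0.0212 (SD, n = 5) in males and 1.46% ± 0.0366 (SD, n = 6) in females (exact permutation test, two-sided, p = 0.0195). The share outside annotated genes was 10.2% ± 0.781 (SD, n = 5) in males and 8.79% ± 1.20 (SD, n = 6) in females (exact permutation test, two-sided, p = 0.0628). With this share as a covariate, the log2 fold change by sex fell to 0.08 for Lss (adjusted p = 0.788, edgeR) and to -0.05 for Srebf2 (adjusted p = 0.852), and 9 genes were called in all. By diet neither share differed beyond the spread between mice (exact permutation tests, p = 0.593 for reads outside genes and p = 0.533 for reads ascribed to more than 1 gene).

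Over the 11 mice, Lss rose with the share of reads outside genes (Pearson's r = 0.84, permutation p = 0.00099, Spearman's rho = 0.85, permutation p = 0.0018, adjusted p = 0.0106 for r and 0.0192 for rho over 32 relations). Without the 2 mice farthest from the median share, r was 0.76. With the share of reads ascribed to more than 1 gene, r was -0.93 for Lss (permutation p = 6e-05, rho = -0.89, permutation p = 0.0005, adjusted p = 0.00192 for r and 0.008 for rho, r = -0.88 without 2 mice). For Srebf2 the same share gave r = 0.82 (permutation p = 0.00159, rho = 0.89, permutation p = 0.00046, adjusted p = 0.0127 for r and 0.008 for rho, r = 0.78 without 2 mice). Many genes followed these shares. Over the 14437 genes averaging 1 CPM or more, the median absolute r was 0.47 with reads outside genes and 0.52 with reads ascribed to more than 1 gene. An r at least as strong as that of Lss was found in 6.92% of these genes for the first share and 2.02% for the second, and one at least as strong as that of Srebf2 in 18.9% and 14.5%.

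**Figure D4:**
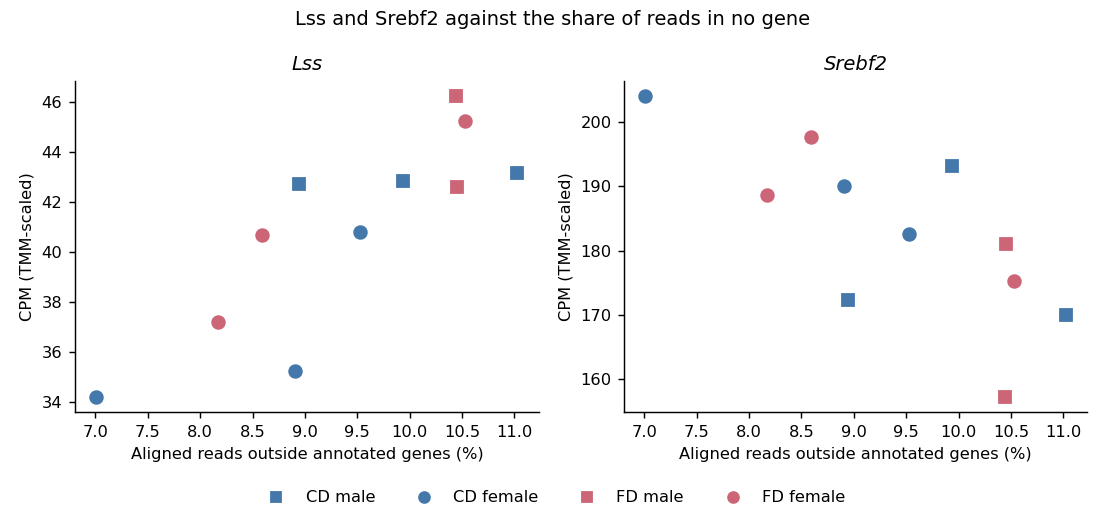
CPM (TMM-scaled) of Lss and Srebf2 in each mouse against the percentage of aligned reads outside annotated genes (the axes do not start at 0), CD in blue, FD in red, males as squares, females as circles. Lss rises from 34.2 CPM in CD female 1, which has the lowest share, and Srebf2 falls from 204 CPM in the same mouse.

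The genes were also compared with each other across mice, after the group means of the log2 CPM had been removed. Of 28 pairs, 20 had r above 0, and 7 passed an adjusted p of 0.1 by r and 2 by rho (permutation within groups, adjusted over the 28 pairs). Sex differences were left in for this test, and how often pairs of other genes would pass was not determined. The pairs Hmgcs1 with Sqle and Lss with Srebf2 were the 2 that passed by both. Hmgcs1 and Sqle had r = 0.78 (permutation p = 0.00194, adjusted p = 0.0543) and rho = 0.84 (permutation p = 0.00165, adjusted p = 0.0462), and r was 0.87 without the 2 mice farthest from the median of Hmgcs1. Lss and Srebf2 had r = -0.74 (permutation p = 0.0153, adjusted p = 0.0898) and rho = -0.83 (permutation p = 0.00445, adjusted p = 0.0623), and r was -0.64 without 2 mice. With the sex means also removed, r was -0.55 and rho -0.64, without a test. Lss and Srebf2 each moved with the library shares given above, and the part of these shares in their relation was not tested.

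Sqle and Fdft1, the enzymes that follow each other at squalene, had the highest r of all pairs, 0.79 (permutation p = 0.0221, adjusted p = 0.0898), with rho = 0.59 (permutation p = 0.0744, adjusted p = 0.247). This relation rested on 2 mice, since r was 0.12 without them. CD female 1 was the highest mouse in both genes, with 80.9 CPM of Sqle and 68.0 CPM of Fdft1. The other 4 pairs that passed by r were Hmgcs1 with Idi1 and with Fdft1, and Idi1 with Sqle and with Fdft1, with r between 0.53 and 0.78 and r between 0.28 and 0.62 without 2 mice. No rho of these 4 passed.

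The 6 genes other than Lss and Srebf2, a group formed after the correlations were seen and therefore not tested, had r above 0 in all 15 of their pairs, between 0.26 and 0.79 with a median of 0.55. With the sex means also removed, the median was 0.68, and with DESeq2's size factors (RLE) it was 0.53, again with all 15 above 0. Without the 2 mice farthest from the median of the first gene of each pair, the median of the 15 was 0.28, r lay between -0.01 (Sqle with Cyp51) and 0.87, and 14 were above 0. In the 13 pairs with Lss or Srebf2, r lay between -0.74 and 0.35, and 5 were above 0. Among the 6 genes, Fdft1 also fell with the share of reads outside genes (r = -0.745, permutation p = 0.00785, adjusted p = 0.0502, r = -0.23 without 2 mice). Sqle had r = -0.67 (permutation p = 0.0227, adjusted p = 0.104), and Hmgcs1, Idi1, Insig1 and Cyp51 between -0.195 and 0.04. In the 6 CD mice alone, r lay between -0.95 (Fdft1) and -0.45 (Cyp51), without a test, and CD female 1 had the lowest share (7.01%). Over all mice but the 2 farthest from the median share, r of the 6 genes lay between -0.23 (Fdft1) and 0.57 (Cyp51). The part of this share in the relations of the 6 was not tested.

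**Figure D5:**
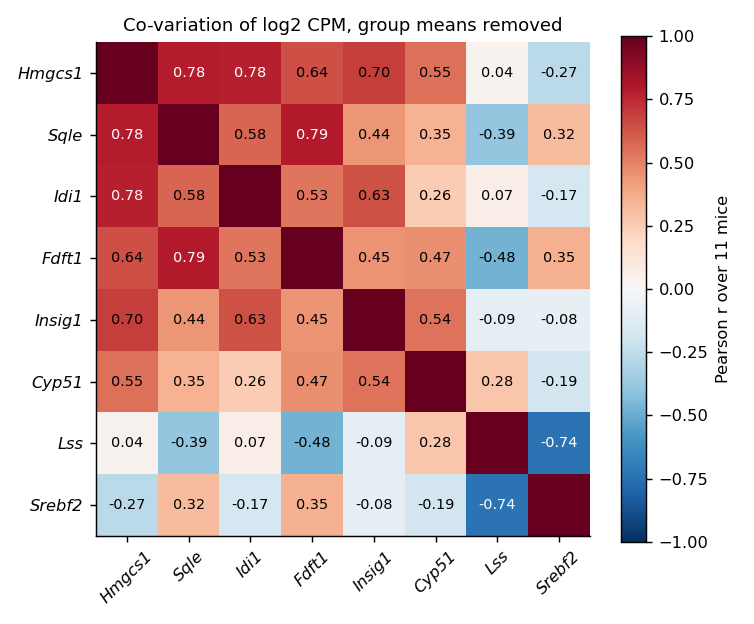
Pearson's r between the log2 CPM of each pair of the 8 genes over 11 mice after removal of the CD and FD means, from blue (-1) to red (1). The block of Hmgcs1, Sqle, Idi1, Fdft1, Insig1 and Cyp51 is red throughout (0.26 to 0.79), whereas Lss with Srebf2 is blue (-0.74).

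The mean of the same 6 genes, each standardized, was set beside the other pathway genes as a description. In the mevalonate arm 7 of 7 genes had r above 0 with it (median 0.49), led by Acat2, a thiolase, with 0.78. In the post-squalene arm 7 of 9 had r above 0 (median 0.34), led by Msmo1, the sterol C4-methyl oxidase, with 0.77. The share was 4 of 9 among uptake genes (median -0.001), 4 of 9 among the regulators measured at 1 CPM or more, and 1 of 7 among efflux and storage genes (median -0.16). Of all 14429 other genes at this level, 52.8% had r above 0, with a median of 0.03. These genes share the libraries and their depths with the 6.

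Genes outside the pathway lists headed the ranking by likeness. The 10 genes whose log2 CPM was most like the mean of the 8 standardized genes over the 11 mice, of 14429 compared, were Decr1 (r = 0.93), Rit2 (0.92), Dnajc18 (0.92), P2ry1 (0.91), Ppa2 (0.91), Snx25 (0.91), Zfp354b (0.89), Cdv3 (0.88), Mgst1 (0.86) and Ddx25 (0.86). None of these 10 is in the lists of sterol genes. The closest gene from those lists, Acat2, ranked 80th with r = 0.76.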

How the data were processed

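Gene counts from the hippocampi of 6 CD and 5 FD F1 mice were analysed. Trimmed 50 bp single-end reads had been mapped by the authors to mm10 (STAR), and uniquely placed reads were deposited as raw counts per gene and mouse. The labels and the paper name featureCounts, the summary lines are those of HTSeq output, and the release of the annotation and the strand setting are not given in the sources used here. Lines for reads in no gene, in several genes or with several places were left out of library sizes and tests. They made up 7.01% to 11.0% (no gene), 1.38% to 1.50% (several genes) and 13.7% to 16.0% (several places) of the aligned reads.

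Symbols came from GENCODE (95.13% of the genes matched). The 8 genes and all lists were chosen with earlier results of these data known. Named genes were the 8, the gene of smallest p by diet and by sex in each list, every pathway gene past the threshold, and the 10 genes most like the mean of the 8. Some genes that this rule names are not reported here. Genes reaching 10 counts over all mice were tested in R 4.3.3 with edgeR 4.0.16 (TMM, quasi-likelihood test, Benjamini-Hochberg adjustment over all genes, threshold 0.1 as in the study). Diet was fitted alone, sex with diet, and the interaction with both. The SE is the log2 fold change divided by the square root of F, and 95% intervals use the degrees of freedom of the test. CPM values are TMM-scaled, with a prior count of 2 for log2 values, and RPKM are these CPM per kilobase of annotated exon. Correlations used 100000 permutations. Near-identical copies were searched with blastn 2.17.0 (at least 50 bases and 95% identity). The scripts were tested on simulated data. Alternatives were other size factors, filters and covariates, DESeq2 1.42.0, fits within 1 sex, a replicate block and leaving out every mouse in turn. The fit by sex without a diet term was added after seeing the data.

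Mice with the same sex and number in the labels were paired for the block. Their deviations from the group means correlated in all 5 pairs (r between 0.31 and 0.54), and after sex was also removed r lay between -0.09 and 0.32, with 3 pairs below 0. Within groups, tables of any 2 mice differed beyond sampling noise (chi-square per degree of freedom 4.39 to 30.2), so none were treated as repeats of the same library. Each mouse was taken as 1 replicate, and these values cannot show whether mice were littermates.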

Additional observations from a re-analysis of the deposited data

How the results depend on the processing

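By diet, 0 of the 8 genes passed the threshold under any of 21 alternatives, including the replicate block (pairs of equal sex and number). The number of all genes called by diet was 14. It was 8 with filterByExpr, 22 with the share of reads in no gene as a covariate, 23 with the replicate block, 2 in males alone and 1 in females alone, and 3 to 12 without 1 mouse. It moved by more than 1.5 times without any mouse other than FD male 2. The block changed no call of the 8. The sign of the diet estimate turned for Idi1 (-0.0251 with sex as a covariate, -0.0119 with the replicate block, -0.0403 in females alone, -0.100 to 0.131 without 1 mouse) and for Fdft1 in males alone (0.0308). It also turned for Sqle without CD female 1 (0.0192, range -0.0393 to 0.0192) and for Srebf2 without FD male 2 (0.00669, range -0.0681 to 0.00669).

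By sex, 1257 genes were called, 2645 without a count filter, 2043 with DESeq2, 37 without a diet term and 9 with the share of reads in no gene, and 18 to 3244 without 1 mouse, more than 1.5 times away from 1257 whichever mouse was left out. The cause was not tested. Of the 8 genes, 1 (Lss) was called without a count filter (adjusted p = 0.058), with DESeq2, and without CD female 2 (0.0381) or FD female 2 (0.0319, edgeR), so the range without 1 mouse was 0 to 1. With the share of reads in no gene, the estimate by sex turned to 0.0148 for Hmgcs1, 0.0424 for Fdft1 and 0.0104 for Insig1. Without 1 mouse it ranged from -0.0521 to 0.016 for Hmgcs1, from -0.0543 to 0.0248 for Insig1 and from -0.286 to 0.0303 for Idi1, the last turning without FD male 1. Depth limits Idi1 most, with 24 to 87 counts per mouse.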
